A study of Neurospora crassa with 19 samples.

Results

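The accessory photoreceptors of Neurospora crassa, a filamentous fungus, are the light-sensing proteins that work beside its main blue-light receptor. The 5 genes described here were chosen by locus from the 9730 genes counted: vvd (NCU03967), cry (NCU00582), nop-1 (NCU10055), phy-1 (NCU04834) and phy-2 (NCU05790). All 5 had at least 20 reads over both libraries together, the minimum for the test used below. The counts came from poly-A RNA of strain N5801, labelled as a complete deletion of dim-1 (NCU06484), a chromatin remodeler gene. Cultures of this 1 strain were shaken for 16 h at 32 °C in Vogel's minimal medium with 1.5% sucrose, and were labelled germinated conidia, which means hyphae grown out of asexual spores. The RNA labels do not give the light the cultures received, any other allele of the strain, or whether the 2 replicates were separate cultures, so the spread between them may be technical. No wild-type RNA was analysed here, and the other 17 of the 19 samples of the series were not used, so the levels describe the libraries labelled with this strain and show no change against wild type.

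Most responses of Neurospora to blue light run through the white collar complex, in which WC-1 is both a flavin-binding photoreceptor and, with WC-2, a transcription factor. VVD is a small flavin-binding protein with a LOV domain, the light-sensing fold that WC-1 also carries, and it binds the complex and damps its activity in lasting light. CRY is a cryptochrome, a blue-light receptor related to the DNA repair enzyme photolyase. NOP-1 is an opsin that binds retinal, and PHY-1 and PHY-2 are phytochromes, red and far-red receptors built as hybrid histidine kinases. In wild type, vvd and cry are known to be induced by light through the white collar complex, and these 2 genes formed the light-induced class. The class of other receptors held nop-1, phy-1 and phy-2.

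The gene counts of replicate 1 summed to 17364963 and those of replicate 2 to 13632746. Levels are given as CPM, the counts-per-million scaling to a common library total, and a count of 0 would have allowed up to 0.173 CPM in replicate 1 and 0.220 CPM in replicate 2. The locus of dim-1 had 258 and 171 counts in the libraries labelled as its deletion. At 14.9 and 12.5 CPM this is far above the limits for a count of 0, although the label says complete deletion. The locus stood above 29.2% of detected genes in replicate 1 and 28.1% in replicate 2. Whether an intact gene was present was not tested. A gene total does not locate its reads, so which part of the locus they came from is unknown, and the libraries are called by their label. The 4 markers of vegetative growth ranged from 3151 to 19352 CPM, and of the 4 sexual development markers fmf-1 and sad-1 had 0 to 3 counts in each library. The other 2, the pheromone precursor gene mfa-1 and the regulator gene fsd-1, were detected in both, with means of 11.4 and 23.5 CPM. The 8 conidiation markers, genes of spore formation, were all detected, with a median of 61.7 CPM and a summed level of 728 CPM in replicate 1 and 507 CPM in replicate 2. Their means ranged from 1.01 CPM for acon-3 (NCU07617) to 258 CPM for csp-1 (NCU02713). Near the lower end, acon-3 had 21 and 11 counts and con-6 had 21 and 28.

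The light-induced receptors were abundant and the others were scarce. The blue-light receptor gene vvd had 20940 counts in replicate 1 and 18188 in replicate 2, or 1206 CPM (exact Poisson 95% interval 1189.6 to 1222) and 1334 CPM (1315 to 1354). Its mean was 1270.0 ± 90.7 CPM (SD, n = 2), and it ranked 137 of 9730 genes in replicate 1 and 107 in replicate 2. The cryptochrome gene cry had 6771 and 5111 counts, or 389.9 CPM (381 to 399) and 375 CPM (365 to 385), with a mean of 382 ± 10.6 CPM (SD, n = 2). It ranked 443 in replicate 1 and 463 in replicate 2. Both genes were high in both libraries, above 94.0% of the 7775 genes detected with at least 10 counts in each library. All intervals here cover counting error only.

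The phytochrome gene phy-1 was the most abundant of the other receptors and nearly equal in the libraries. It had 292 and 222 counts, or 16.8 CPM (95% interval 14.9 to 18.9) in replicate 1 and 16.3 CPM (14.2 to 18.6) in replicate 2, with a mean of 16.5 ± 0.376 CPM (SD, n = 2). This placed it below the median detected gene, at 34.2 CPM. The other phytochrome gene, phy-2, had 78 and 17 counts, or 4.49 CPM (3.55 to 5.61) and 1.25 CPM (0.726 to 2.00). The opsin gene nop-1 had 42 and 10 counts, or 2.42 CPM (1.74 to 3.27) and 0.734 CPM (0.352 to 1.35). For both phy-2 and nop-1 replicate 1 was the higher. Their means of 2.87 ± 2.29 and 1.58 ± 1.19 CPM (SD, n = 2) lie between libraries that differ by more than counting error. Such differences were common: 4527 of the 7898 genes tested passed the exact binomial test described below when no minimum fold was asked. With 10 counts in replicate 2, nop-1 stood at the lowest count that still passed as detected.

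**Figure D1:**
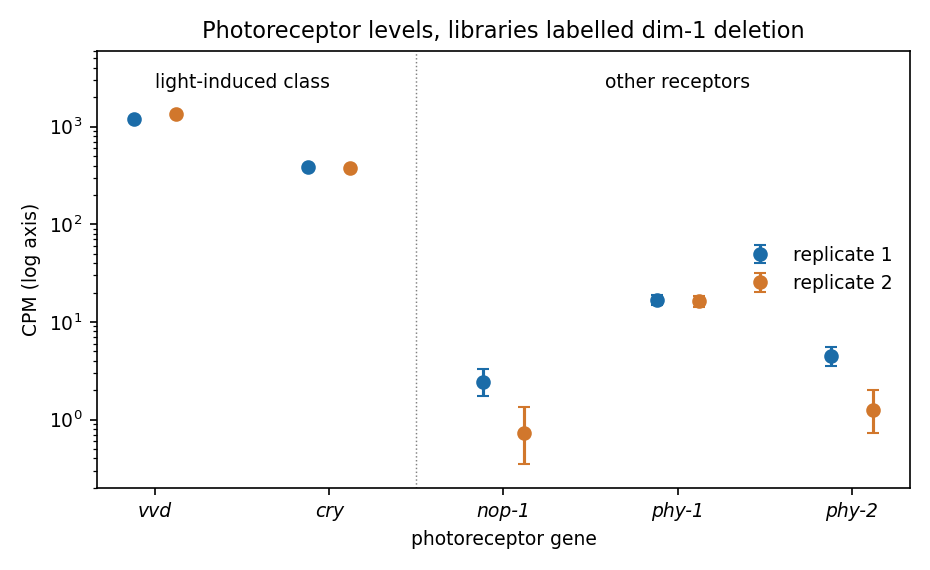
Level of each photoreceptor gene in CPM on a log axis, with 1 point per library and exact Poisson 95% intervals as bars, which for vvd and cry are smaller than the points. The genes vvd and cry lie at or above 375 CPM, phy-1 lies near 16.5 CPM in both libraries, and nop-1 and phy-2 are lower in replicate 2 than in replicate 1.

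Of all reads on the 5 genes, vvd took 74.5% in replicate 1 (exact binomial 95% interval 73.9 to 75.0) and 77.2% in replicate 2 (76.7 to 77.8). The share of cry was 24.1% (23.6 to 24.6) in replicate 1 and 21.7% (21.2 to 22.2) in replicate 2. The 3 other receptors together made up the small remainder, most of it phy-1, with 1.04% in replicate 1 and 0.943% in replicate 2. Long genes give more reads per transcript, so levels of different genes were compared per kilobase of gene span, the distance from gene start to gene end with introns included. On that scale vvd had 368 CPM per kb in replicate 1 and 407 in replicate 2, and cry had 93.0 and 89.4. The gene phy-1 had 2.60 and 2.51 CPM per kb, nop-1 had 1.17 and 0.353, and phy-2 had 1.18 and 0.326.

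The order per kilobase was vvd, cry, phy-1 and then nop-1 and phy-2, which could not be ranked against each other. Over the 10 pairs of members, the interval of the ratio lay above 1 in both libraries for 9. The exception was nop-1 over phy-2, with a ratio of 0.991 in replicate 1 (exact 95% interval 0.664 to 1.46) and 1.08 in replicate 2 (0.443 to 2.50). The level per kilobase of vvd was 3.95 times that of cry in replicate 1 (3.85 to 4.06) and 4.55 times in replicate 2 (4.41 to 4.69). That of cry was 35.8 times the level of phy-1 in replicate 1 (31.9 to 40.4) and 35.6 times in replicate 2 (31.1 to 40.9), with overlapping intervals. Between the phytochromes, phy-1 stood 2.21 times above phy-2 in replicate 1 (1.72 to 2.87) and 7.71 times in replicate 2 (4.70 to 13.5).

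As classes, the light-induced receptors averaged 230.3 CPM per kb in replicate 1, against 1.65 for the other receptors, a ratio of 139.97. In replicate 2 they averaged 248 CPM per kb, against 1.06 for the others, a ratio of 233. The mean log2 ratio was 7.50 ± 0.52 (SD, n = 2). The classes did not overlap in either library. They hold only 2 and 3 genes, chosen with earlier results of these data known, so the lack of overlap is a description and no test. Since both classes were measured in the same single condition, the ratio is a difference in level between genes and not a response to light.

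Beside their relatives by protein domain, vvd stood far above its only listed relative, cry slightly above its own, and the phytochromes stood low. The locus listed as the opsin relative of nop-1 has no symbol in the gene table and was dropped, which left 5 of 6 relatives. The level per kilobase of vvd was 17.2 times that of wc-1 (NCU02356), the LOV photoreceptor of the white collar complex, in replicate 1 (exact 95% interval 16.5 to 18.0) and 22.9 times in replicate 2 (21.8 to 24.2). For cry the relative was the photolyase gene phr-1 (NCU08626), which uses light to repair DNA, and the ratio was 1.52 in replicate 1 (1.45 to 1.60) and 1.40 in replicate 2 (1.32 to 1.48). Both phytochrome genes lay below all 3 other hybrid histidine kinase genes in both libraries. The osmosensor gene os-1 (NCU02815) stood 18.4 times above phy-1 in replicate 1 (16.4 to 20.8) and 15.6 times in replicate 2 (13.6 to 17.9). The kinase genes nik-2 (NCU01833) and dcc-1 (NCU00939) stood 4.99 and 5.01 times above phy-1 in replicate 1, and 4.62 and 4.32 times in replicate 2.

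Hybrid histidine kinases pass phosphate through a carrier protein to response regulators and, for os-1, on to a MAP kinase cascade. The 6 listed genes of this relay were all detected, with a median of 28.1 CPM per kb, against 2.56 ± 0.0580 for phy-1 and 0.751 ± 0.600 for phy-2 (SD, n = 2). The median over all detected genes was 13.0 CPM per kb. The phosphate carrier gene hpt-1 (NCU01489) had 67.7 ± 0.394 CPM per kb and the MAP kinase gene os-2 (NCU07024) had 65.3 ± 1.93 (SD, n = 2). The lowest of the 6, the response regulator gene rrg-2 (NCU02413), had 10.8 ± 0.157 CPM per kb, which is above both phytochrome genes in both libraries. Whether phy-1 and phy-2 signal through these proteins is not something that levels can show.

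The white collar genes themselves were far below vvd. Per kilobase, wc-1 had 19.6 ± 2.57 CPM, wc-2 (NCU00902), its partner, had 15.0 ± 0.433, the clock gene frq (NCU02265), a target of the complex, had 15.5 ± 1.64, and frh (NCU03363), the helicase that binds the FRQ protein, had 9.37 ± 2.79 (SD, n = 2). The level of vvd per kilobase was 22.0 times that of frq in replicate 1 (20.9 to 23.3) and 28.3 times in replicate 2 (26.5 to 30.3). Like vvd, frq is induced by light in wild type.

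Among 15 other genes known to respond to light, vvd was near the top and cry stood in the upper part. The median of the 15 was 62.5 CPM per kb, against 13.0 over all detected genes. In replicate 1, 14 of them lay below vvd and ccg-1 (NCU03753), a clock-controlled gene, lay above it, with 756 CPM per kb. In replicate 2 all 15 lay below vvd, and ccg-1 had 216 CPM per kb. The carotenoid gene al-1 (NCU00552), which encodes phytoene dehydrogenase, came closest from below, and vvd stood 1.23 times above it in replicate 1 (1.21 to 1.26) and 1.35 times in replicate 2 (1.32 to 1.38). For cry, 10 of the 15 lay below it in each library. The level of cry was within counting error of that of al-2 (NCU00585), a carotenoid gene separated from cry by 2 genes in the gene table, with a ratio of 0.985 in replicate 1 (0.951 to 1.02) and 1.00 in replicate 2 (0.963 to 1.05). Gene span includes introns, and the intervals do not cover its use as the length. The genes nop-1 and phy-2 lay below all 15 in both libraries, and phy-1 lay above a single one, the conidiation gene con-6 (NCU08769), which had 1.84 ± 0.674 CPM per kb (SD, n = 2).

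**Figure D2:**
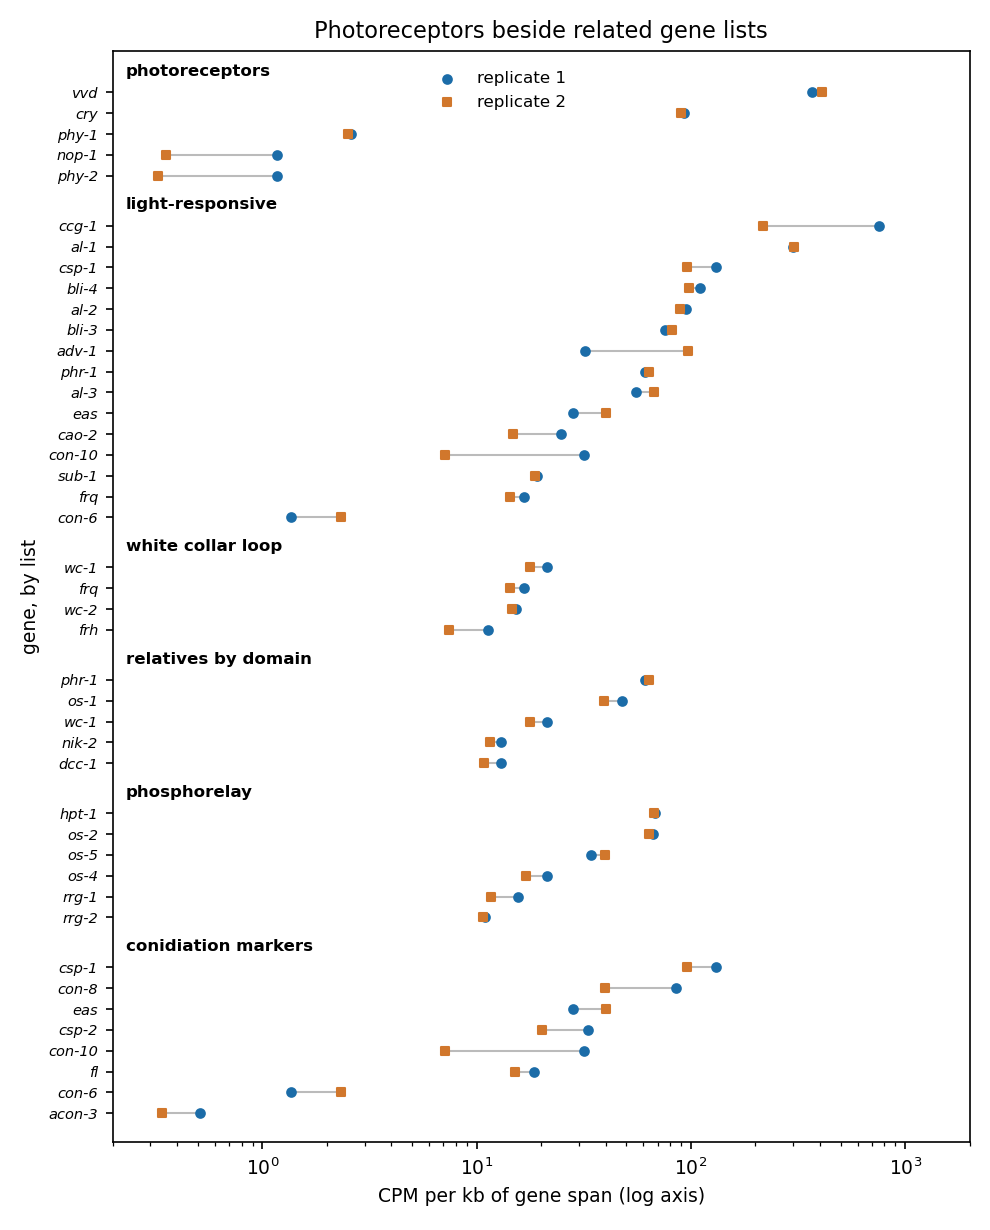
Level per kilobase of gene span, in CPM on a log axis, of the photoreceptors and of the members of 5 related lists, with 1 point per library joined by a line. The gene vvd exceeds all listed genes but ccg-1 in replicate 1, and phy-1, nop-1 and phy-2 lie below every member of the white collar, relatives and phosphorelay lists.

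With a single group, the only comparison between samples is that of the replicates. The test set the reads of replicate 1 against the library share after TMM scaling, gene by gene, with a two-sided exact binomial test and Benjamini-Hochberg adjustment over all 7898 genes with at least 20 counts. A call needed a difference of 2-fold or more together with an adjusted p below 0.05, which held for 6.15% of them: 398 were higher in replicate 1, or 5.04%, and 88 in replicate 2, or 1.11%. The test compares 2 libraries, treats reads as independent and says nothing about conditions.

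Of the 5 photoreceptors, 2 were called, both higher in replicate 1. For phy-2 replicate 1 over replicate 2 was 3.39-fold (exact 95% interval on the reads 2.03 to 6.25; log2 ratio 1.76, adjusted p = 1.21e-06 by the exact binomial test). For nop-1 it was 3.06-fold (1.57 to 7.09; log2 ratio 1.61, adjusted p = 0.000935 by the same exact test). Neither was called by edgeR's exact test, which, with the common coefficient of variation of 23.8% estimated from these libraries, gave an adjusted p of 0.273 for phy-2 and 0.597 for nop-1. Since that spread was estimated from the difference between the same 2 libraries, with 1 on each side, it is not independent of the comparison, and the missed threshold says nothing about whether these genes differ. The binomial result shows only a difference beyond counting error between these libraries. The edgeR test called 51 genes at the same fold, or 0.646%.

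Calls between the libraries were more frequent in the count range of nop-1 and phy-2 than over all genes. Of 397 genes with 50 to 100 counts over both libraries, nop-1 and phy-2 among them, 12.8% were called by the exact binomial test. Those called higher in replicate 1 made up 10.6% of the 397. In that range 18 genes, or 4.53%, had a ratio in either direction at least as large as that of nop-1, and 16, or 4.03%, one at least as large as that of phy-2. The range was set after the values were seen.

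The remaining 3 photoreceptors differed little between the libraries. For vvd replicate 1 was 0.869-fold of replicate 2 (exact 95% interval 0.852 to 0.887), which passed the exact binomial test (adjusted p = 4.29e-42) at a fold below the minimum for a call. With no minimum fold, 4527 of the 7898 genes tested passed it as well. The adjusted p of vvd in edgeR's exact test was 1. For cry the ratio was 1.00 (0.965 to 1.04; adjusted p = 1 by the exact binomial test) and for phy-1 it was 0.993 (0.831 to 1.19; adjusted p = 0.984 by the same exact test).

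**Figure D3:**
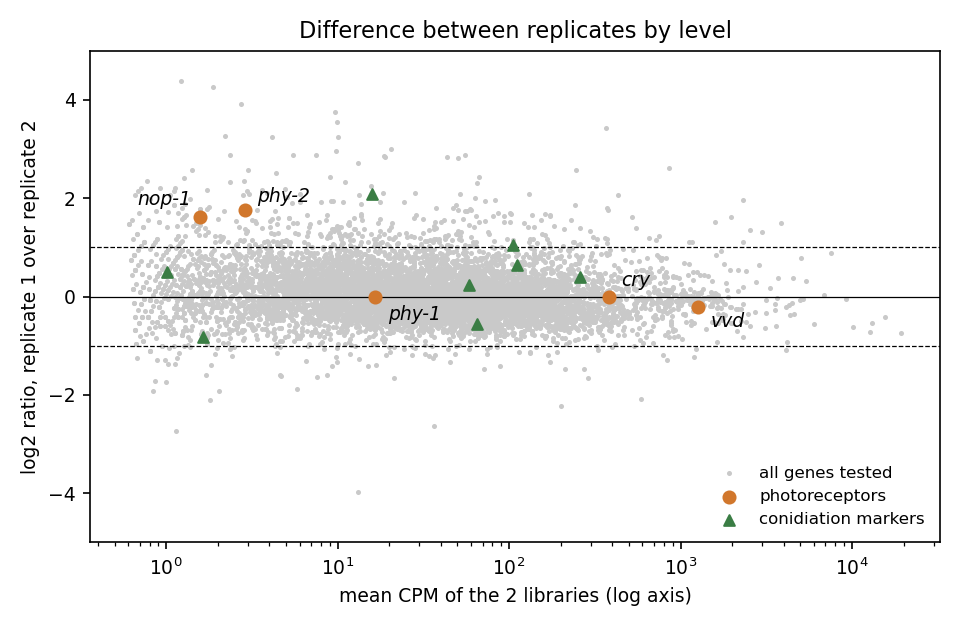
Log2 ratio of replicate 1 over replicate 2 after TMM scaling against mean CPM on a log axis, for all genes tested, the photoreceptors and the conidiation markers. Dashed lines mark the 2-fold minimum, and nop-1 and phy-2 lie above the upper line while vvd, cry and phy-1 lie close to 0.

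Conidiation markers were higher in replicate 1 for 6 of 8 genes, and 2 of the 8 were called by the exact binomial test, against 6.15% of all genes tested. The spore gene con-10 (NCU07325) had 25.9 CPM in replicate 1 and 5.87 CPM in replicate 2, a log2 ratio of 2.08, and was below an adjusted p of 0.05 in edgeR's exact test too (0.0191). The gene con-8 (NCU09235) had 144 CPM in replicate 1 and 67.3 CPM in replicate 2, a log2 ratio of 1.04, with an adjusted p of 0.797 in edgeR's exact test. The 2 exceptions, con-6 and the hydrophobin gene eas (NCU08457), had log2 ratios of −0.81 and −0.56. The median log2 ratio was 0.45 over the 8 markers and 0.00 over all genes tested. A ratio above 0 was not particular to these markers. It was found for 3831 of the 7775 detected genes, 4 of 4 white collar loop genes and 4 of 5 relatives, with wc-1 in both lists. For the phosphorelay genes it was 3 of 6 and for the vegetative growth markers 0 of 4. The part of the conidiation markers in the difference of nop-1 and phy-2 was not tested.

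Light-responsive genes did not share a direction between the libraries. The lists overlap, so they are not independent: con-6, con-10, csp-1 and eas are also conidiation markers. The gene frq is also a white collar loop gene, and phr-1 is also a relative by domain. Of the 15, the log2 ratio was above 0 for 7 and below 0 for 8, with a median of −0.03, and 3 were called by the exact binomial test, against 6.15% of all genes tested. These were con-10 and ccg-1, higher in replicate 1, and adv-1 (NCU07392), a transcription factor gene of development, for which replicate 1 had 144 CPM and replicate 2 had 434 CPM. In edgeR's exact test ccg-1 and adv-1 had adjusted p of 0.0613 and 0.0960, so con-10 was the only one of the 3 with an adjusted p below 0.05. None of the 4 white collar loop genes, the 5 relatives or the 6 phosphorelay genes was called.

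The genomic surroundings of the receptors differed in level. In the order of the gene table, 19 of the 20 nearest genes of vvd, 10 on each side, were detected, as were 19 of 20 for cry, 17 for phy-1 and 17 for phy-2. For nop-1 it was 11 of 20, with a median of 2.51 CPM, against 79.9% detected and a median of 20.4 CPM over all genes. The 2 genes before nop-1 had 1 and 5 counts in replicate 1 and 0 in replicate 2, and the 2 genes after it had 0 in both, so nop-1 was the most expressed gene of these 5. The gene phy-2 lay beside NCU05789, with 776 ± 34.0 CPM, and NCU17274, with 1.17 ± 0.108 CPM (SD, n = 2). Neither neighbour was called between the libraries, with log2 ratios of 0.03 and −0.25. The span of NCU00583, with 2 and 3 counts, overlaps that of cry, and no other member overlaps its next neighbours. The window of 10 genes was chosen after values of closer neighbours had been seen.

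**Figure D4:**
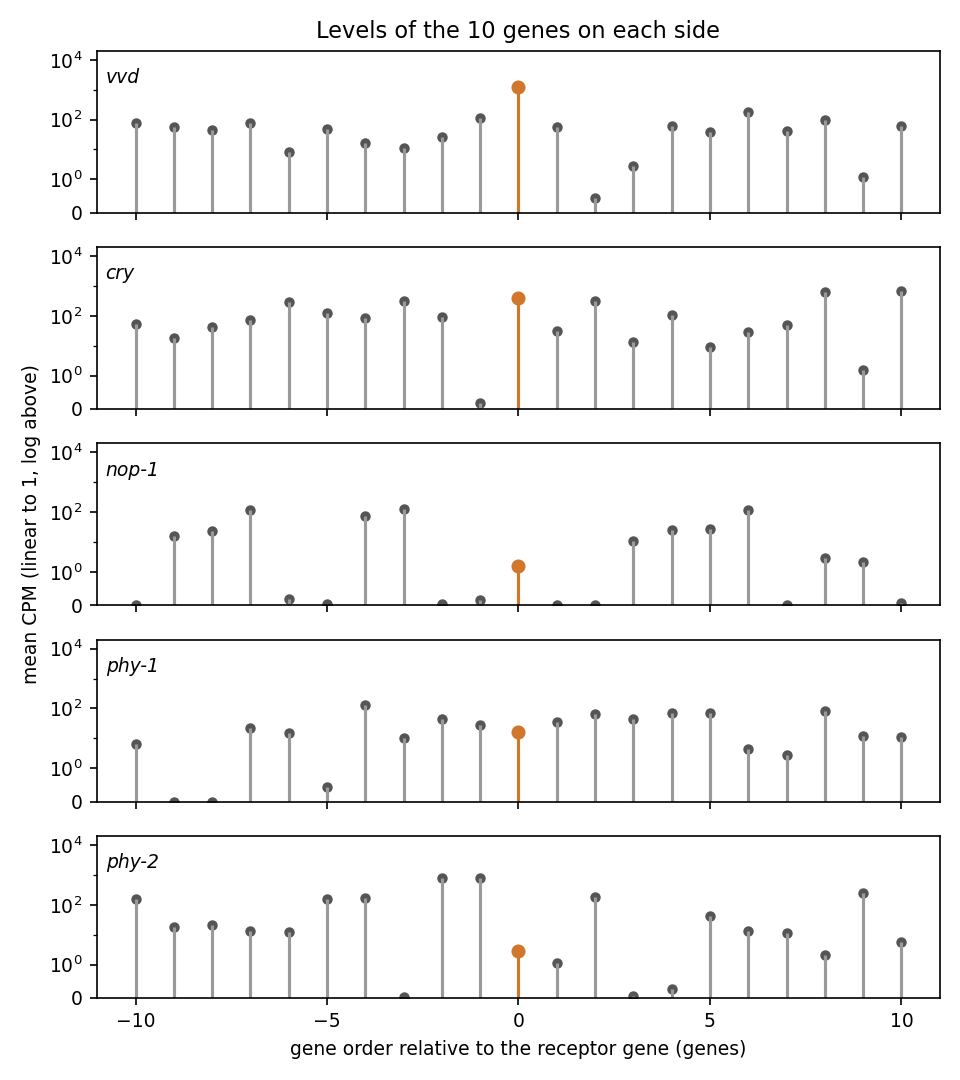
Mean CPM of each photoreceptor gene (orange) and of the 10 counted genes on each side of it in table order (grey), on an axis that is linear up to 1 CPM and logarithmic above. The gene nop-1 stands between 4 genes at or near 0, while vvd exceeds all 20 of its neighbours shown.

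Genes nearest to each receptor in level were taken as those with a symbol at the smallest Euclidean distance over log2(CPM + 1) of the 2 libraries. Only 1118 of the 9730 genes had a symbol. For vvd these were the translation factor gene eif5A (NCU05274), fkr-2 (NCU04140) and crp-7 (NCU08627), at distances of 0.0535, 0.112 and 0.163. For cry they were dpm (NCU07965), rco-1 (NCU06205) and acu-5 (NCU06836), at 0.0726, 0.0849 and 0.0887, and for phy-1 stk-55 (NCU09595), pp-2 (NCU01613) and pp2A (NCU06563), at 0.0412, 0.0550 and 0.0562. The nearest genes with a symbol were more distant for nop-1 and phy-2, whose levels rest on 10 to 78 counts per library. For nop-1 they were amt (NCU07176), prk-9 (NCU04096) and rpd (NCU01270), at 0.286, 0.347 and 0.349. For phy-2 they were the pheromone receptor gene pre-2 (NCU05758), with 5.30 CPM in replicate 1 and 1.91 CPM in replicate 2, gh61-5 (NCU08760) and gh3-3 (NCU08755), at 0.421, 0.463 and 0.526. With 2 libraries this likeness is one of level and replicate ratio only.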

How the data were processed

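For 2 poly-A RNA libraries the authors deposited raw read counts, whole numbers with 1 value per locus and no normalization. Libraries were made with a stranded kit, per the labels' protocols. The submitters' processing notes name Bowtie, Bowtie2, TopHat, SAMtools, HTSeq and DESeq. Build, annotation and strand setting behind the counts were not given in the sources used here, so reads of overlapping genes are uncertain.

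Levels are CPM over 9730 genes. The 5 rows without a gene were left out. Of the counts summed over all rows, reads outside genes made up 6.72% and 6.64% in replicates 1 and 2. Multiply aligned reads made up 3.41% and 2.48%, and ambiguous reads 0.0728% and 0.0771%. RefSeq's table of NC12 genes, which held 9729 of the 9730 counted loci, gave symbols, gene order and spans. Coding lengths and sequences were not used here, so gene span replaced the planned coding length.

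Log2 ratios add 0.5 counts. Python 3.11.15, scipy 1.17.1, R 4.3.3, edgeR 4.0.16 and DESeq2 1.42.0 (size factors only) were used, and the binomial test was checked on simulated data. With 1 group no quasi-likelihood test could be fitted. Named genes are the 5 members, dim-1, all genes of the lists, the 3 nearest genes by level and, added later, direct neighbours. Members and lists were chosen with earlier results of these data known.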

Additional observations from a re-analysis of the deposited data

How the results depend on the processing

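Depth limits nop-1 and phy-2, whose levels rest on 10 to 78 counts per library, and their means lie between 2 unlike libraries. Without replicate 1 nop-1 had 0.734 CPM and phy-2 1.25 CPM, and without replicate 2 they had 2.42 and 4.49 CPM. The summed level of the 5 receptors, 1673 CPM, ranged from 1620 to 1727 CPM when a library was left out, and was 1876 CPM over totals without the 10 highest genes, chosen after seeing the data, because a smaller total raises every level. The log2 ratio of light-induced over other receptors, 7.50, ranged from 7.13 to 7.86 when a library was left out. It was 6.89 without division by length, 6.61 with nop-1 counted as light-induced and 6.11 without vvd, which follows from the members or lengths entered. The 2 receptor calls between replicates were 0 with edgeR's exact test, in which 1 library stands for each side and the spread comes from the same libraries, at adjusted p of 0.273 and 0.597 (2 receptors had an unadjusted p below 0.05 there). Total counts or DESeq2 size factors left 2 calls. Without the fold minimum, chosen after seeing the data, 3 of the 5 receptors were called, against 4527 of the 7898 genes tested. The 486 genes called became 51 with edgeR's exact test and 4527 without the fold minimum, and 500 with total counts, 434 of them higher in replicate 1 against 398 of 486. The near-zero ratios changed sign: cry to −0.00035 with DESeq2 size factors and phy-1 to 0.0455 with total counts, neither called. Coding length was not run, so ratios per kilobase near 1, such as those of cry to al-2 and phr-1 and of vvd to al-1, may change with the length used. No paired analysis was possible because the RNA libraries form a single group.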
